A study of Homo sapiens with 6 samples.

Results

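The genes described here are 42 genes of protein folding, of endoplasmic reticulum-associated degradation (ERAD) and of stress sensing in the endoplasmic reticulum (ER), out of 21850 genes in the deposited count table. They were taken by name from a list of symbols, and all 42 are listed in the table under those symbols. RNA was sequenced from MM.1S, an established human multiple myeloma cell line, on day 3 after infection with a lentivirus carrying a PRKCN shRNA (shPRKCN, 3 libraries, genotype labelled PRKCN knockdown) or a scramble shRNA (shNT, 3 libraries, genotype labelled WT). Both groups therefore carry a lentiviral hairpin. The titles of the shPRKCN libraries share a tag, but the labels do not say which PRKCN hairpin was used. An effect of the hairpin other than PRKCN loss cannot be told apart from PRKCN loss. The labels also do not say whether the libraries came from separate cultures. The p-values therefore measure the spread between these libraries, which may be technical. PRKCN is listed under its current symbol PRKD3, whose level was 1216.0 to 1297.6 CPM (a TMM-scaled count relative to its library total) in shNT and 490.9 to 535.0 CPM in shPRKCN libraries.

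The ER folds and quality-checks proteins of the secretory pathway, and a plasma cell, whose main product is antibody, carries an unusually heavy load of them. Chaperones of the HSP70 and HSP90 families, the lectin chaperones calnexin and calreticulin and the disulfide isomerases fold the new chains. Chains that do not fold are marked by lectins, passed through a membrane ubiquitin ligase and destroyed by the proteasome, which is ERAD. The membrane sensors IRE1 (ERN1), PERK (EIF2AK3) and ATF6 respond to unfolded proteins and adjust this machinery, a program called the unfolded protein response (UPR).

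Library totals ran from 35625564 to 37730003 counts and no library stood apart. All 6 plasma cell markers examined (SDC1, CD38, TNFRSF17, PRDM1, MZB1 and JCHAIN) were present, with a summed level of 7239.5 to 7362.1 CPM in shNT and 7145.5 to 7284.3 CPM in shPRKCN libraries. Most of that sum is JCHAIN (5357.6 CPM in shNT and 5412.2 CPM in shPRKCN cells), and the markers did not all hold their level. TNFRSF17 was at 45.7%, PRDM1 at 68.7% and MZB1 at 85.5% of control, all called lower, SDC1 at 113.5% was called higher, and CD38 and JCHAIN were not called. The part of these shifts in the ER results was not tested. Of the markers of other cells, 6 of 7 were listed, and LYZ, CD14, EPCAM and COL1A1 were under 1 CPM in every library. The summed level of these 6 was 13.2 to 15.5 CPM in shNT and 28.5 to 32.4 CPM in shPRKCN libraries, most of it from CD3E, which stood at 10.3 to 11.2 and 26.9 to 30.9 CPM. Its part in the results was not tested.

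Knockdown of PRKCN was followed by many small differences in the ER genes, most of them decreases, and by a few large decreases. SEL1L, the adaptor of the main ERAD ubiquitin ligase, fell to 41.3% of the control level, FKBP14 to 53.2% and the sensor kinase EIF2AK3 to 59.5%. The most abundant folding factors HSP90B1, CALR and P4HB fell by a smaller proportion, whereas the central chaperone HSPA5 rose slightly. In bulk RNA, fewer cells of a type and less RNA per cell cannot be told apart. FKBP2, with 0 or 1 count in each library, was at or under the floor of 3 counts and is not compared, so 41 genes were tested.

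Log2 fold changes are of shPRKCN against shNT and are given ± the standard error (SE). At a Benjamini-Hochberg adjusted p under 0.05 in edgeR's quasi-likelihood test, 23 of the 41 ER genes were lower and 11 higher in shPRKCN cells, and 7 did not pass. That is 56.1% lower against 27.8% of all 13971 genes tested, and 26.8% higher against 26.5% of all genes. Among the 8862 tested genes with a mean of at least 10 CPM, 32.3% were lower and 32.6% higher, and among the 39 ER genes above that level 59.0% and 28.2%. With the additional limit of a log2 fold change beyond 0.58, which the study used, 3 ER genes were lower (7.32%, against 10.6% of all genes tested). By both limits edgeR called 0 ER genes higher, against 6.15% of all genes tested. The count was also 0 at an unadjusted p under 0.05 with the same fold limit, and 0 with DESeq2 and limma. The median log2 fold change was −0.20 over the ER genes and 0.0012 over all genes tested. The 3 shPRKCN libraries lay wholly below the 3 shNT libraries for 26 ER genes (63.4%, against 29.8% of all genes tested) and wholly above them for 10 (24.4%, against 29.0%).

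**Figure D1:**
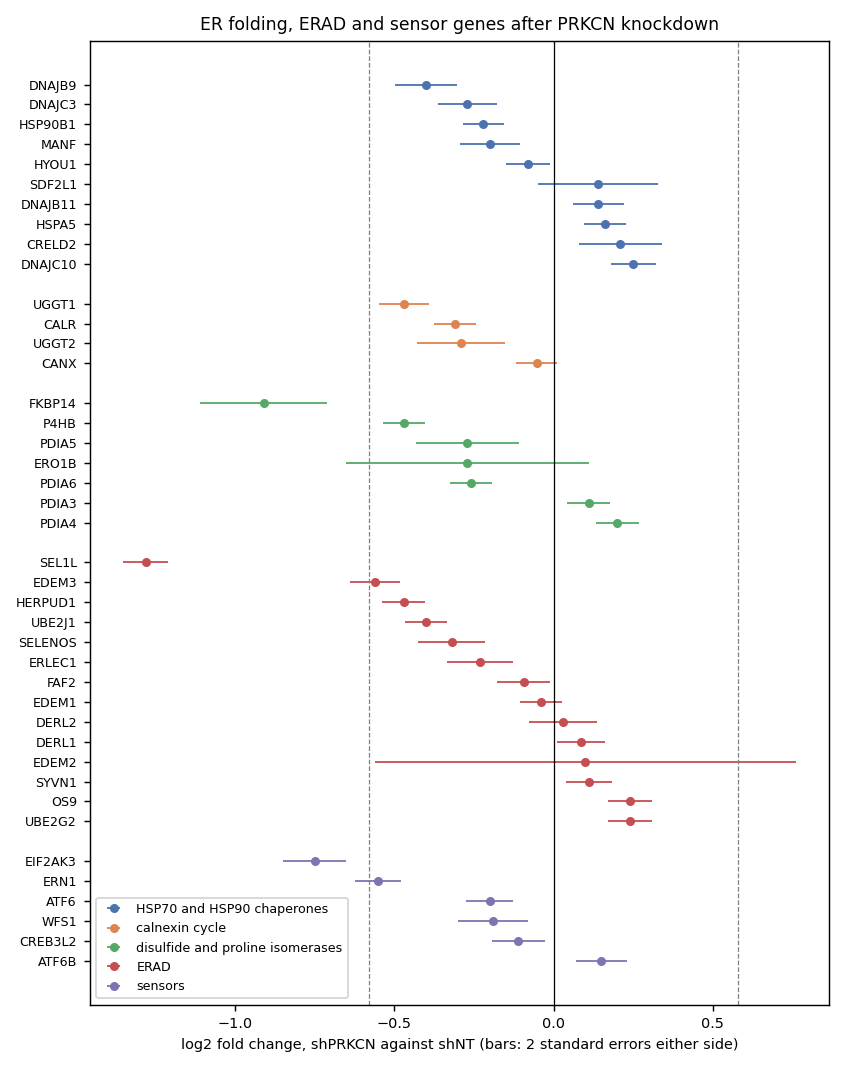
Log2 fold change of the 41 tested ER genes in shPRKCN against shNT cells (points) with 2 standard errors either side (bars), grouped by role, and with dashed lines at the fold limit of 0.58 in each direction. SEL1L (−1.28), FKBP14 (−0.91) and EIF2AK3 (−0.75) lie beyond the lower line, and no gene lies beyond the upper line.

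In terms of level, a few genes dominated. FPKM, the deposited value per length, was 602.9 ± 10.7 (SD, n = 3) for HSP90B1 in shNT cells, 552.9 ± 13.8 for CALR and 429.1 ± 11.1 for P4HB. CANX followed at 195.4 ± 5.28 FPKM and UBE2J1 at 186.4 ± 4.60 FPKM, and CANX was the higher in each shNT library. HSP90B1, CALR, P4HB and CANX together held 50.2% of the summed shNT FPKM of the 42 genes. PDIA6 (148.4 ± 2.47 FPKM) and HSPA5 (143.9 ± 3.88 FPKM) were close, with PDIA6 the higher in each shNT library. At the other end, ERO1B (0.365 ± 0.0479 FPKM) and EDEM2 (0.501 ± 0.091 FPKM) had the lowest values of the tested ER genes. FKBP14 (2.82 ± 0.150 FPKM) and UGGT2 (4.20 ± 0.126 FPKM) were low. MMP24-AS1-EDEM2, which overlaps EDEM2, had a mean of 76.7 counts against 36.5, and how their reads were assigned is not given.

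The 42 genes took 1.22% ± 0.00168 (SD, n = 3) of the counts in shNT and 1.08% ± 0.00876 of those in shPRKCN libraries. The 3 libraries of each group did not overlap. Summed FPKM went from a mean of 3545.4 to 3161.5, a difference of −383.9 FPKM, and 28 genes that were lower contributed −491.6 and 14 that were higher 107.7 FPKM. P4HB, CALR, HSP90B1 and UBE2J1 alone contributed −336.7 FPKM. By level, the 10 tested genes with a mean of at least 100 FPKM had a median log2 fold change of −0.24, the 15 between 20 and 100 FPKM one of −0.08 and the 16 under 20 FPKM one of −0.25. The loss in summed level came mostly from abundant genes with modest proportional decreases. Of the 3 genes with the largest proportional decreases, SEL1L contributed −31.4 FPKM, FKBP14 −1.30 FPKM and EIF2AK3 −5.67 FPKM.

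**Figure D2:**
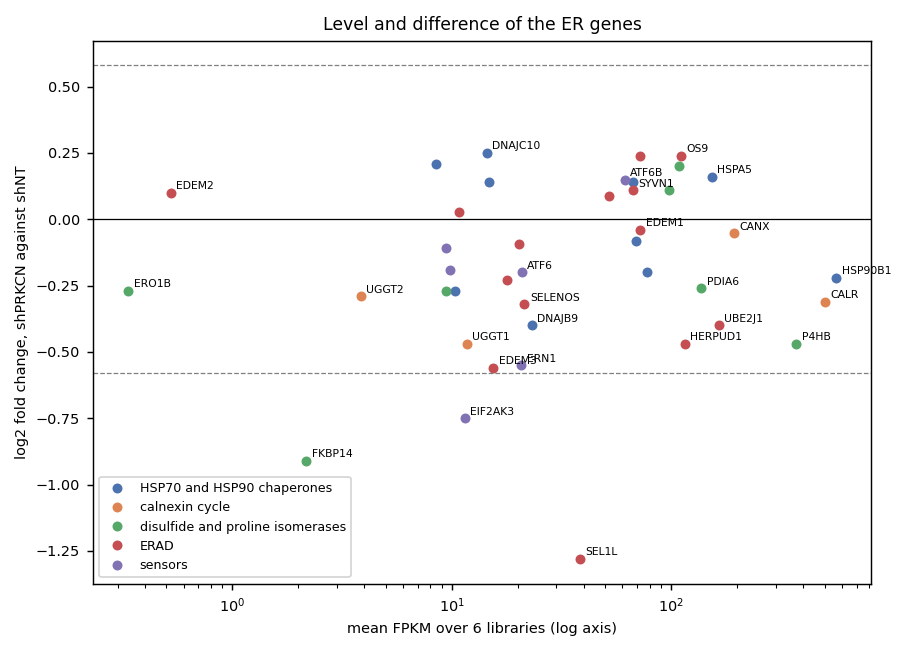
Mean FPKM over the 6 libraries (log axis) and log2 fold change in shPRKCN against shNT cells of the 41 tested ER genes, coloured by role, with dashed lines at the fold limit of 0.58. The most abundant genes HSP90B1, CALR and P4HB sit between −0.47 and −0.22, and the genes past the limit are of low or middle level.

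Many ER chaperone genes are known to carry the ER stress response element (ERSE) in their promoters, which ATF6 binds together with the CCAAT-binding factor NF-Y. Promoters (250 bases before to 50 after the start) were taken from RefSeq (GRCh38.p14) for 39 of the 42 genes, and none was used for FKBP14, PDIA3 and DERL1. The ERSE was searched on both strands as CCAAT, 9 bases and CCACG. It was found in 6 of the 39 (15.4%), against 22 of all 27305 promoters (0.0806%). Among the promoters of genes tested 0.136% held it. The 7 sites of the 6 ER genes are shown because genes that share the element did not move together after PRKCN knockdown. Capitals mark both conserved ends, and each site reads 5′ to 3′ on its own strand.
HSPA5, chr9:125241391-125241409, minus strand: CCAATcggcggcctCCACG
CRELD2, chr22:49918554-49918572, minus strand: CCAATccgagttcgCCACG
HSP90B1, distal, chr12:103930216-103930234, plus strand: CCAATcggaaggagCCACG
HSP90B1, proximal, chr12:103930321-103930339, minus strand: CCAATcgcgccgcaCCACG
CALR, chr19:12938384-12938402, minus strand: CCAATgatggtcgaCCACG
CANX, chr5:179698778-179698796, plus strand: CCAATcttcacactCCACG
ERO1B, chr1:236282183-236282201, plus strand: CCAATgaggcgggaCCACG

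Of these 6 genes HSPA5 (0.16) and CRELD2 (0.21) rose on the log2 scale, HSP90B1 (−0.22) and CALR (−0.31) fell, and CANX (−0.053) and ERO1B (−0.27) did not pass the test. Their median log2 fold change was −0.13, against −0.20 in the 32 tested genes whose window holds no ERSE. The site of CANX lies inside the span of the listed gene, before a downstream start. The related element ERSE-II was searched as ATTGG, 1 base and CCACG. It was found in 3 of the 39 (7.69%), against 0.0549% of all promoters and 0.109% of those of genes tested. The 3 genes are HYOU1 (2 copies), SDF2L1 and HERPUD1.
HERPUD1, chr16:56932025-56932035, plus strand: ATTGGgCCACG
HYOU1, both copies, chr11:119057274-119057284 and chr11:119057380-119057390, plus strand: ATTGGaCCACG
SDF2L1, chr22:21642114-21642124, minus strand: ATTGGtCCACG

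Among the ERSE-II genes HERPUD1 fell by 0.47 on the log2 scale, while SDF2L1 did not pass the test. The XBP1-type element (UPRE, TGACGTGG, either strand) was found in HYOU1, DNAJC10 and UBE2J1. That is 7.69%, against 0.795% of all promoters and 0.888% of those of genes tested. In HYOU1 the UPRE overlaps 1 ERSE-II copy. DNAJC10 rose and UBE2J1 fell, by values given with their groups. The element that ATF4 binds (TGATG, 1 base, AA) was found in 1 gene, HERPUD1 (2.56%, against 3.67% of all promoters). Among the promoters of genes tested 1.73% held this ATF4 element. A match is a description of letters in this window, and no measurement of binding was made here.

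The chaperone group centres on HSPA5 (BiP), the HSP70 of the ER, which also holds the sensors inactive. HSPA5 stood at 572.1, 550.6 and 582.2 CPM in the shNT libraries and at 625.4, 644.1 and 636.3 CPM in the shPRKCN libraries. All 3 shPRKCN values exceeded all shNT values, with a log2 fold change of 0.16 ± 0.033 (SE, edgeR adjusted p = 2.5e-05), or 111.8% of control. HSP90B1 (GRP94), the HSP90 of the ER and a chaperone of immunoglobulins and integrins, moved the other way. It stood at 1660.1, 1690.3 and 1718.1 CPM in shNT and at 1465.7, 1398.2 and 1495.8 CPM in shPRKCN libraries, a log2 fold change of −0.22 ± 0.032 (SE, edgeR adjusted p = 2.4e-08). Of the 10 genes of this group 5 were lower and 4 higher, against 27.8% and 26.5% of all genes tested. The group median of 0.028 was close to that of all genes tested.

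The J-domain partners of BiP, which deliver substrates to it, were split. DNAJB9 (ERdj4), which directs BiP to the sensor IRE1, fell from 63.5, 63.3 and 63.2 CPM to 49.4, 46.0 and 48.7 CPM, a log2 fold change of −0.40 ± 0.049 (SE, edgeR adjusted p = 1.0e-10). DNAJC3 (p58IPK) fell by 0.27 ± 0.047 on the log2 scale (SE). DNAJC10 (ERdj5), a reductase that prepares ERAD substrates, rose from 270.1, 267.1 and 258.1 CPM to 322.8, 305.1 and 320.7 CPM, a log2 fold change of 0.25 ± 0.035 (SE, edgeR adjusted p = 2.8e-09). DNAJB11 (ERdj3), a partner that binds nascent chains, rose by 0.14 ± 0.040 (SE). For each of these 4 partners the 2 groups of libraries did not overlap. Of all genes tested, 29.8% lay wholly below and 29.0% wholly above in shPRKCN libraries.

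Among other members of the group, MANF, a secreted ER stress factor that binds BiP, fell by 0.20 ± 0.047 on the log2 scale (SE), and CRELD2, an ER stress-inducible protein, rose by 0.21 ± 0.065 (SE). SDF2L1, a partner of ERdj3, did not pass the test, with a log2 fold change of 0.14 and an interval of 2 standard errors from −0.05 to 0.33. Single libraries set much of that value, which was 0.08 without shNT 3 and 0.23 without shNT 2. HYOU1 (GRP170), the nucleotide exchange factor of BiP, had a log2 fold change of −0.080 ± 0.034 (SE, edgeR adjusted p = 0.041). That call is not stable, since 11 of 16 alternatives lost it. The adjusted p of HYOU1 ran from 0.0054 to 0.27 over those alternatives, and reached 0.27 without the third shPRKCN library, 0.15 without the first, 0.14 without shNT 1 and 0.089 without shNT 2.

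In the calnexin cycle, lectin chaperones hold glycoproteins by a single glucose, and the UGGT enzymes put that glucose back on chains that are not yet folded. CALR (calreticulin) stood at 1062.1, 1029.4 and 1084.6 CPM in shNT and at 840.7, 880.6 and 838.1 CPM in shPRKCN libraries, with no overlap. Its log2 fold change was −0.31 ± 0.033 (SE, edgeR adjusted p = 5.1e-13). CANX (calnexin), its membrane-bound relative, differed little, with 1200.8, 1175.9 and 1137.3 CPM in shNT and 1125.6, 1131.0 and 1131.6 CPM in shPRKCN libraries. The interval of 2 standard errors around its log2 fold change of −0.053 ran from −0.12 to 0.01, so a decrease of the size of that in CALR lies outside it. UGGT1 fell from 165.5, 164.8 and 154.6 CPM to 115.5, 118.0 and 117.6 CPM, a log2 fold change of −0.47 ± 0.039 (SE, edgeR adjusted p = 4.9e-17), and UGGT2 fell by 0.29 ± 0.069 (SE). Of the 4 genes of the cycle among the 42, 3 were lower, against 27.8% of all genes tested. The median log2 fold change of these 4 was −0.30, and other genes of the cycle are not in this count.

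Disulfide isomerases form and rearrange the bonds between cysteines. P4HB (PDI), the archetype of the family and a subunit of collagen prolyl hydroxylase, stood at 1119.4, 1078.1 and 1137.7 CPM in shNT and at 781.0, 833.6 and 792.3 CPM in shPRKCN libraries. It fell by 0.47 ± 0.033 on the log2 scale (SE, edgeR adjusted p = 2.2e-20), to 72.2% of control. PDIA6, which attenuates IRE1, fell from 472.1 ± 8.69 to 393.7 ± 8.74 CPM (SD, n = 3), a log2 fold change of −0.26 ± 0.033 (SE). PDIA4 (ERp72) rose from 284.2 ± 8.62 to 325.5 ± 5.62 CPM (SD, n = 3), a log2 fold change of 0.20 ± 0.034 (SE). PDIA3 (ERp57), the isomerase that works with calnexin and calreticulin, rose slightly, by 0.11 ± 0.034 (SE). The isomerases thus did not move as 1 block, and for each of these 4 the groups did not overlap. That also held for 29.8% (lower) and 29.0% (higher) of all genes tested.

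PDIA5 fell by 0.27 ± 0.081 on the log2 scale (SE, edgeR adjusted p = 0.0030), a call that was lost without the third shPRKCN library (−0.19, adjusted p = 0.062, within a range of 0.00049 to 0.062 over the alternatives). ERO1B, an oxidase that recharges PDI, had 73 to 123 counts per library and was not resolved, with a log2 fold change of −0.27 and an interval of 2 standard errors from −0.66 to 0.12. The value for ERO1B was −0.12 without shPRKCN 1, −0.16 without shNT 1 and −0.42 without shPRKCN 2. FKBP14, a proline isomerase of the ER best known for its part in collagen folding, had the second-largest decrease of the 41 genes. It stood at 13.3, 14.5 and 14.6 CPM in shNT and at 7.28, 7.42 and 7.90 CPM in shPRKCN libraries, a log2 fold change of −0.91 ± 0.099 (SE, edgeR adjusted p = 2.4e-12). Its log2 fold change was −0.60 with limma on log2(FPKM + 1), where the pseudocount is large beside its level. FKBP2, another proline isomerase, had 1 count in shNT 1, 1 count in shPRKCN 2 and 0 in the other libraries. LOC114841035, a listed gene whose span overlaps that of FKBP2, had a mean of 9.67 counts, and how reads of overlapping genes were assigned is not given in the sources used here. Of the 7 tested genes of this group 4 were lower and 2 higher, against 27.8% and 26.5% of all genes tested. Their median log2 fold change was −0.27.

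**Figure D3:**
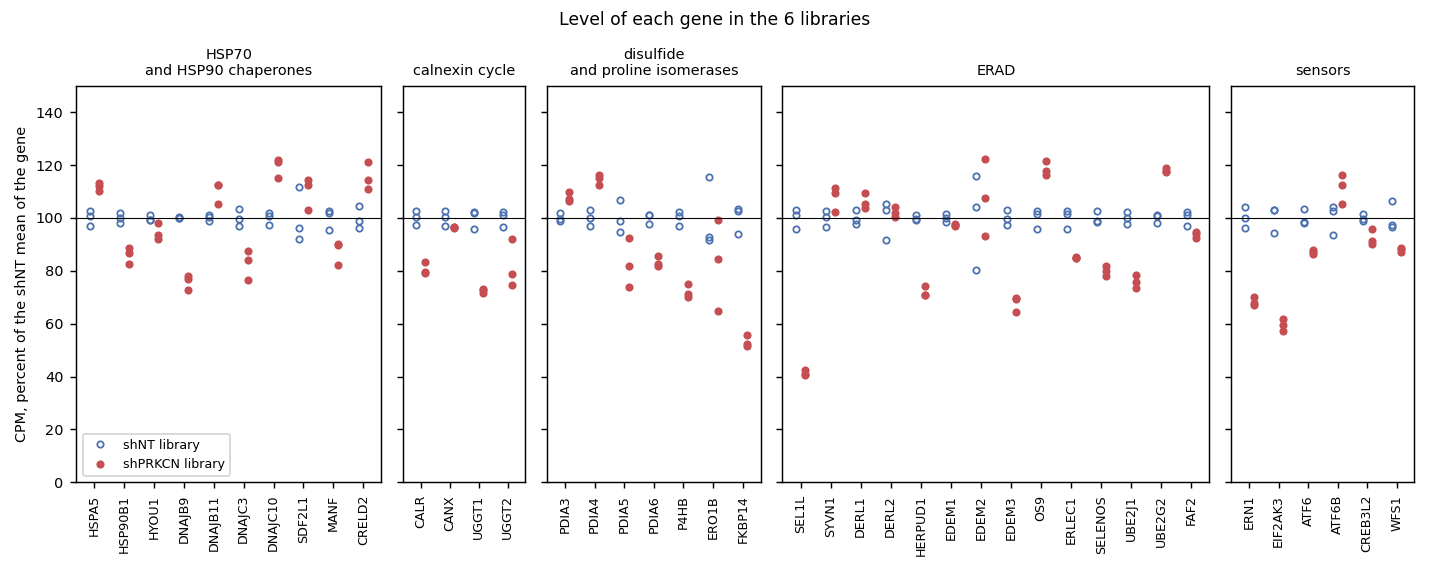
CPM of each of the 41 tested ER genes in the 3 shNT libraries (open points) and the 3 shPRKCN libraries (filled points), as a percent of the gene's shNT mean, in 1 panel for each role. The shPRKCN points of SEL1L lie near 41.3% and those of EIF2AK3 near 59.5%, whereas those of HSPA5, DNAJC10, PDIA4, OS9 and UBE2G2 lie above every shNT point.

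ERAD begins with lectins and mannosidases that select misfolded glycoproteins, passes through the SEL1L-SYVN1 (HRD1) ubiquitin ligase and ends with extraction by the ATPase VCP. SEL1L, which holds SYVN1 and its substrates together, stood at 472.0, 480.5 and 446.0 CPM in shNT and at 190.3, 189.1 and 197.8 CPM in shPRKCN libraries. Its log2 fold change was −1.28 ± 0.035 (SE, edgeR adjusted p = 6.3e-42), rank 360 from the lowest among 13971 genes, and leaving out single libraries gave −1.31 to −1.25. SEL1L lies on chromosome 14 from 81471547 to 81533853 (GRCh38.p14). SYVN1, the ligase itself, did not follow it, at 242.4, 257.6 and 251.9 CPM in shNT and 274.2, 279.2 and 256.5 CPM in shPRKCN libraries. The groups overlapped, with a log2 fold change of 0.11 ± 0.036 (SE, edgeR adjusted p = 0.0092). Without the first shNT library SYVN1 lost the call (0.083, adjusted p = 0.098, within a range of 0.0018 to 0.098 over the alternatives). SYVN1 also overlaps MRPL49, which had a mean of 3014.8 counts against 9638.3 for SYVN1.

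Some other parts of the ligase complex fell. HERPUD1, a stress-inducible scaffold of the complex, stood at 380.2, 382.0 and 387.1 CPM in shNT and at 271.4, 285.1 and 271.6 CPM in shPRKCN libraries, a log2 fold change of −0.47 ± 0.034 (SE, edgeR adjusted p = 8.8e-20). UBE2J1, the ER-anchored ubiquitin-conjugating enzyme of this ligase, fell from 848.8, 888.5 and 868.1 CPM to 658.5, 638.6 and 680.7 CPM, a log2 fold change of −0.40 ± 0.033 (SE). SELENOS, a selenoprotein that recruits VCP, fell by 0.32 ± 0.052 (SE). In contrast UBE2G2, a cytosolic conjugating enzyme of ERAD, rose from 232.8, 239.3 and 239.4 CPM to 282.2, 279.7 and 278.6 CPM, a log2 fold change of 0.24 ± 0.034 (SE, edgeR adjusted p = 1.1e-08). The 2 conjugating enzymes thus moved in opposite directions, each with no overlap between groups, as for 29.8% (lower) and 29.0% (higher) of all genes tested.

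The derlins among the 42 genes, channel-forming partners of the ligase, differed little. DERL1 had a log2 fold change of 0.086 ± 0.037 (SE, edgeR adjusted p = 0.046), which 5 of 16 alternatives lost, with an adjusted p of 0.011 to 0.15. Leaving out any library except shNT 1 and shPRKCN 3 lost it, with log2 fold changes of 0.065 to 0.093. DERL2 had 0.029, with an interval of 2 standard errors from −0.08 to 0.14, and overlaps MIS12, which had a mean of 1397.2 counts against 1662.0 for DERL2. FAF2, a VCP recruiter, had −0.094 ± 0.042 (SE, edgeR adjusted p = 0.053), and its adjusted p was 0.026 without the third shNT library (0.026 to 0.18 over the alternatives).

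Among the lectins, which read the trimmed sugar on misfolded chains, OS9 and ERLEC1 went opposite ways. OS9 rose from 278.0, 260.3 and 275.9 CPM to 315.7, 329.7 and 319.1 CPM, a log2 fold change of 0.24 ± 0.035 (SE, edgeR adjusted p = 9.7e-09). ERLEC1 (XTP3B) fell from 45.1, 47.9 and 48.4 CPM to 40.0, 40.0 and 40.2 CPM, a log2 fold change of −0.23 ± 0.052 (SE). Of the EDEM proteins, which promote mannose trimming, EDEM3 fell from 159.9, 165.4 and 156.3 CPM to 111.5, 103.6 and 111.8 CPM, a log2 fold change of −0.56 ± 0.039 (SE, edgeR adjusted p = 3.4e-20) that lies just inside the fold limit. EDEM1 did not pass the test, with a log2 fold change of −0.040 and an interval of 2 standard errors from −0.11 to 0.03. EDEM2 had 28 to 44 counts per library and an interval from −0.55 to 0.76, too wide to compare with the other 2, and the readthrough gene MMP24-AS1-EDEM2 that overlaps it had a mean of 76.7 counts. Of the 14 ERAD genes 6 were lower, 4 higher and 4 not called, against 27.8% lower and 26.5% higher of all genes tested. Their median log2 fold change was −0.067.

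Of the 6 genes of the sensor group 5 were lower and ATF6B was higher, against 27.8% and 26.5% of all genes tested. ERN1 (IRE1), the kinase and RNase that splices XBP1 mRNA, stood at 269.0, 280.0 and 258.8 CPM in shNT and at 180.8, 188.7 and 182.4 CPM in shPRKCN libraries. Its log2 fold change was −0.55 ± 0.036 (SE, edgeR adjusted p = 1.3e-21), just inside the fold limit. EIF2AK3 (PERK), the kinase that slows translation, stood at 72.8, 72.7 and 66.6 CPM in shNT and at 40.5, 42 and 43.7 CPM in shPRKCN libraries. It fell by 0.75 ± 0.050 on the log2 scale (SE, edgeR adjusted p = 2.2e-21), and its span on chromosome 2, from 88556741 to 88628145 (GRCh38.p14), overlaps that of EIF2AK3-DT, which had a mean of 52.0 counts against 2078.7. For both kinases the groups of libraries were far apart.

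The membrane-bound transcription factors changed less. ATF6, which is cut in the Golgi to release an activator of chaperone genes, fell from 172.6, 181.5 and 171.7 CPM to 153.9, 152.8 and 151.2 CPM, a log2 fold change of −0.20 ± 0.037 (SE, edgeR adjusted p = 4.7e-06). Its relative ATF6B rose from 142.7, 156.7 and 158.9 CPM to 171.8, 177.6 and 160.9 CPM, a log2 fold change of 0.15 ± 0.040 (SE, edgeR adjusted p = 7.0e-04). WFS1 (wolframin), an ER membrane protein that restrains ATF6, fell by 0.19 ± 0.055 (SE). CREB3L2, an ATF6-like factor of secretory capacity, had −0.11 ± 0.042 (SE, edgeR adjusted p = 0.019). Of 16 alternatives 7 lost the call of CREB3L2 (adjusted p 0.013 to 0.13), among them those without shNT 1 (0.070), shNT 2 (0.051) and shPRKCN 3 (0.13). The median log2 fold change of the 6 genes was −0.19.

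**Figure D4:**
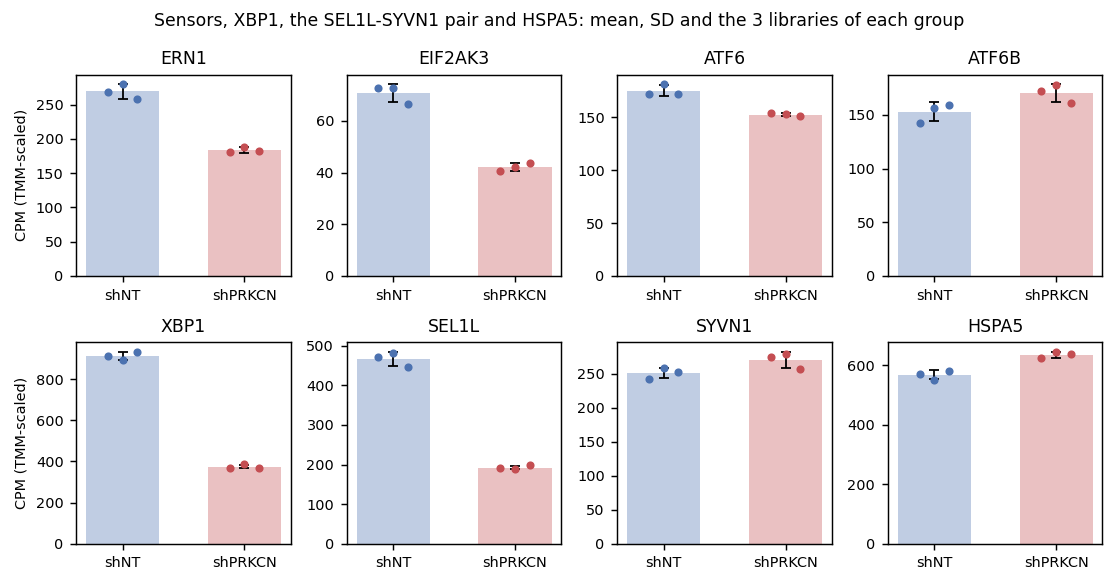
CPM of the 3 sensors ERN1, EIF2AK3 and ATF6, of ATF6B, of XBP1 and of SEL1L, SYVN1 and HSPA5 in shNT and shPRKCN cells (bars: mean, whiskers: SD, points: the 3 libraries). XBP1 falls from 912.7 to 374.9 CPM and SEL1L from 466.2 to 192.4 CPM, while SYVN1 and HSPA5 are slightly higher in shPRKCN cells.

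Downstream of the sensors, a list of 21 UPR effectors and processing factors had 19 tested genes, of which 10 fell and 2 rose by the adjusted p alone (against 27.8% and 26.5% of all genes tested), with a median log2 fold change of −0.16. XBP1, whose mRNA is the substrate of IRE1 and whose spliced form drives ER expansion in plasma cells, stood at 911.5, 894.2 and 932.3 CPM in shNT and at 369.6, 385.4 and 369.7 CPM in shPRKCN libraries. Its log2 fold change was −1.28 ± 0.033 (SE, edgeR adjusted p = 1.9e-43), and counts per gene do not separate the spliced from the unspliced form. On the PERK side, ATF4 fell by 0.27 ± 0.034 (SE) and DDIT3 (CHOP) by 1.03 ± 0.087 (SE) on the log2 scale. Counts per gene do not measure PERK activity, which was not tested. DDIT3 overlaps MARS1, which had a mean of 4428.2 counts against 531.0 for DDIT3. ATF3 (−1.26) and PPP1R15A (−1.04), a phosphatase subunit that reverses the PERK signal, also fell past the fold limit.

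Further lists held ER genes outside the 42. Of 31 tested genes of other folding factors, 15 fell and 4 rose by the same criterion and against the same background, with a median log2 fold change of −0.13. The largest decreases past both limits were in SELENOM (−1.83), at 1.37 CPM in shNT cells, in TXNDC5 (−1.09), which overlaps BMP6, and in HSPA13 (−0.84), an HSP70-like protein. Of 33 tested genes of other ERAD factors, 11 fell, 11 rose and 11 were not called, with a median log2 fold change of 0.03. These shares are near those of all tested genes with at least 10 CPM (32.3% lower and 32.6% higher). RNF170, a ubiquitin ligase of the ER membrane, was the only one past both limits, with a rise of 1.41 on the log2 scale from 3.60 to 9.58 CPM, and it overlaps HOOK3. The difference between these lists was not tested.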

How the data were processed

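The authors deposited whole-number counts per gene, with 1 column per library and no normalization, and FPKM values. The submitters' processing notes name FastQC, HISAT2, StringTie and GRCh38.p14 without roles, and strandedness is not given in the sources used here. The deposited FPKM follow from the counts, the library totals and 1 length per gene (9524 genes checked), so both tables are 1 measurement. FPKM was used for levels between genes, TMM-scaled CPM for levels between libraries.

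Counts were fitted over the whole table with edgeR 4.0.16 (TMM, filterByExpr, quasi-likelihood test, R 4.3.3) on 13971 genes, with Benjamini-Hochberg adjustment over all of them. Standard errors are the log2 fold change divided by the square root of F. Alternatives used DESeq2 1.42.0, other scalings and filters, limma 3.58.1 on log2 FPKM with a pseudocount of 1 or 0.1, a replicate block and single libraries left out. Scripts were tested on simulated data. Protein sequences were not analysed here.

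Genes and lists were chosen with earlier results of these data known, so no list was tested as a set. All 42 genes are named. Of each further list, the rule names the 3 largest changes per direction past both limits, and always XBP1, ATF4 and DDIT3. Overlaps are of RefSeq gene spans (GRCh38.p14), and promoters were searched with Python 3.11.15. Replicate libraries differed beyond sampling noise (chi-square per degree of freedom 2.93 to 4.02 within groups).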

Additional observations from a re-analysis of the deposited data

How the results depend on the processing

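Over the 16 alternatives the ER genes lower at an adjusted p under 0.05 numbered 20 to 24 and those higher 10 to 11, and 3 stayed lower past both limits in each. In the main fit 3877 of all 13971 genes tested were lower and 3700 higher. With library-size scaling 21 ER genes were lower and 11 higher, against 3596 and 3965 of all genes tested. With the replicate number as a block the counts were 22 lower and 10 higher, against 3784 and 3585 of all genes tested. Same-numbered libraries did not deviate together (correlations −0.0419, −0.0133 and 0.00381), so the numbers do not pair the libraries. Of 41 genes, 33 kept direction and call in every alternative that tested them. The others are HYOU1, CREB3L2, DERL1, PDIA5, SYVN1 and FAF2, described with their groups, and DERL2 (−0.024 to 0.069) and EDEM2 (−0.028 to 0.22), uncalled genes whose sign changed without shNT 2. The median over the ER genes was −0.17 with limma on log2(FPKM + 1) over genes of at least 1 FPKM, −0.15 with limma on log2(FPKM + 1), and −0.21 to −0.17 with single libraries left out. The median of the chaperone group ran from −0.0023 (without shNT 3) to 0.035 with single libraries left out and from 0.028 to 0.048 under the other alternatives. That of the isomerases was −0.24 with log2(FPKM + 0.1) and with the FPKM minimum, −0.23 with log2(FPKM + 1) and −0.32 to −0.23 with single libraries left out. That of the ERAD genes was −0.047 with library-size scaling and with log2(FPKM + 0.1), and −0.045 with log2(FPKM + 1). That of the sensors was −0.16 with log2(FPKM + 1), with and without the FPKM minimum. A pseudocount shrinks fold changes of low genes by construction, and the other causes were not tested. Low counts limit ERO1B and EDEM2, whose intervals leave out changes as large as that of SEL1L but not the modest ones of most members. FKBP2 had too few counts to be tested. Whether depth, low expression or the assignment of reads of overlapping genes set these counts was not tested.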
